A study of Mus musculus with 21 samples.

Results

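Broad H3K36me3 domains of myoblasts are long, unbroken stretches of chromatin in which a peak of trimethylated lysine 36 of histone H3 was called without interruption. They were taken from the peak list of wild-type (WT) replicate 1 at day 0. A domain is a merged peak of at least 20 kb on chromosomes 1 to 19 with at least 80% of its length inside peaks of WT replicate 2 of the same day. Of 70795 merged peaks in that list, 1060 reached the length and 975 met both conditions, 1.38% of the peaks but 16.7% of the covered length.

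Chromatin immunoprecipitation followed by sequencing was done in C2C12, an established mouse myoblast line that can be made to form muscle cells in culture. WT cells had 2 libraries per condition, and there were 5 conditions: day 0, and either control medium or methionine restriction at days 1 and 5. A pair of lines that the labels call Setd2 knockouts, KO line 1 and KO line 2, had 1 library each in the same 5 conditions. The labels do not say how the Setd2 gene was disrupted, whether a KO line is a single clone, what starts the count of days, or whether the WT replicates are separate cultures. The files hold no measurement of the SETD2 protein.

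SETD2 travels with elongating RNA polymerase II and is the main enzyme that adds the third methyl group to lysine 36 of histone H3 in mammalian cells. The mark therefore lies over the bodies of transcribed genes, usually rising past the start and continuing to the end, and is low at promoters. The methyl group comes from S-adenosylmethionine, which cells make from methionine.

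The measure used throughout is cover, the percent of a domain's bases inside the peaks of a library. Cover tells where a peak was called, not how much of the mark was there. Read depth is unknown, since a peak list carries none. WT lists covered 110 to 183 Mb, the 4 restricted ones 110 to 134 Mb. KO lists were shorter, and the day 1 restricted list of KO line 1 had only 791 peaks and that of KO line 2 127, so values at 0 there come from nearly empty lists. On all domains but 4 the host is the protein-coding gene that covers most of the domain. The 4 domains that touch no coding gene each hold a microRNA hairpin, and all 4 lost cover under methionine restriction on both days.

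The mature microRNAs of these 4 domains, and of a let-7 relative inside a coding host, show which families they belong to. The sequences are from RefSeq on GRCm38.p6, written 5′ to 3′ with the seed, bases 2 to 8, in capitals.
let-7b-5p: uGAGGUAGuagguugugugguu
let-7c-5p: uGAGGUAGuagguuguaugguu
let-7g-5p: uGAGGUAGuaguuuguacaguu
miR-29a-3p: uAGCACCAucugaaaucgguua
miR-29b-3p: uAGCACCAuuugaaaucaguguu
miR-365-3p: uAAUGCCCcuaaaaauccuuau
miR-31-5p: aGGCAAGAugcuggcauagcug

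The 3 let-7 members share a seed and come from different domains: let-7b and let-7c from chr15:85671942-85708465, and let-7g from the domain on Wdr82, a component of histone H3 lysine 4 methyltransferase complexes. miR-29a and miR-29b share another seed and come from a single domain at chr6:31053925-31088378. miR-365 lies in a domain at chr11:79712644-79737924 and miR-31 in one at chr4:88906378-88928154. let-7 and miR-29 are known as microRNAs that increase with differentiation in many tissues, muscle included.

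The domains were 26.5 kb long in the median, with quartiles of 22.6 and 34.2 kb, and 125 reached 40 kb. Each of the 975 was a single deposited peak. The longest, on Ubr4, a very large ubiquitin ligase, ran for 104.5 kb at chr4:139388265-139492788. Next came Myof, a ferlin of the muscle plasma membrane, with 95.7 kb, and Trrap, a scaffold of histone acetyltransferase complexes, with 91.8 kb. Col5a1, a fibrillar collagen chain, had 90.4 kb and Dst, a cytoskeletal linker, 82.9 kb. The other 5 of the 10 longest were on Lrp1, Lamb1, Hspg2, Anapc1 and Myo1e. The authors' fold enrichment of the peak was 4.45 in the median of the domains and 3.58 for 11028 shorter regions of 2 to 20 kb chosen by the same conditions.

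Both bounds of the rule cut through a continuous range. The shortest domain, on Zw10, had 20002 bases, and the longest merged peak left out for its length, on Rad21, had 19997. The lowest share in replicate 2 was 80.02% on Dab2, and the highest share left out was 79.9% on Crebbp, a histone acetyltransferase. Of the 85 long peaks left out on their share, the longest was on Wnk1 with 55.1 kb.

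A coding host was found for 971 domains, in 924 different genes, and 43 hosts held more than 1 domain. A single coding gene was touched by 692 domains, 268 touched 2 and 11 touched 3. In the median 98.4% of a domain's bases lay within coding genes. Hosts had a median length of 43.4 kb, against 42.9 kb for the hosts of shorter regions, and 618 domains (63.6%) filled at least 50% of the host, against 16.8% of the shorter regions. Since a domain is at least 20 kb long by the rule, it fills more of a gene of a given length.

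For 665 domains with at least 80% of their length in a host of known strand, the edges were placed along the gene. The 5′ edge lay 10.8 kb after the gene start in the median (quartiles 3.01 and 36.3 kb). It lay upstream of the start in 0 of 665, against 2 of 7521 shorter regions placed the same way (0.0266%). It lay within 5 kb of the start in 233 (35.0%), against 21.2% of the shorter regions. The 3′ edge lay within 5 kb of the gene end in 465 (69.9%), against 33.8% of the shorter regions. It passed the end in 398 (59.8%), against 14.98% of the shorter regions. These domains thus began inside the gene, as did nearly all shorter regions, and most ran to or past its 3′ end. Being at least 20 kb long by the rule, a domain also leaves less of a host of a given length beyond its edges.

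Promoter windows, from 250 bases before to 50 after the start, could be read from RefSeq for 750 of the 924 hosts. Peaks of WT replicate 1 at day 0 touched 15 of them (2.0%), against 4.42% of 3712 other coding genes with at least 50% of the body covered and 1.86% of 16457 coding windows in all. Over the other 9 WT libraries 9 to 17 host windows were touched. The windows of 3 hosts, picked by hand for the results on their domains and not as typical promoters, are printed from RefSeq on GRCm38.p6 on the gene's own strand, with 1 match of a searched motif in capitals: GGGCGG or its complement CCGCCC in Ubr4 and Cd44, and CCAAT in Kif14. Ubr4 is the longest domain, Cd44 the one with the widest loss under restriction, and Kif14, a mitotic kinesin, one of those lost between days 1 and 5. The window of Ubr4 is chr4:139380409-139380708 (plus strand), that of Cd44 chr2:102901616-102901915 (minus strand) and that of Kif14 chr1:136467598-136467897 (plus strand).
Ubr4: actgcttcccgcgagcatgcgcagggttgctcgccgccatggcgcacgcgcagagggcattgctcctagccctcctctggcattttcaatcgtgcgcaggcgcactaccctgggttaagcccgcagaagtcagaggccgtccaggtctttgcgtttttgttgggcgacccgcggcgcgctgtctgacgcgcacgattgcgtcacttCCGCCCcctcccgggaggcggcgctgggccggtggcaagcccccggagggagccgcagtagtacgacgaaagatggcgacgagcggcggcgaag
Cd44: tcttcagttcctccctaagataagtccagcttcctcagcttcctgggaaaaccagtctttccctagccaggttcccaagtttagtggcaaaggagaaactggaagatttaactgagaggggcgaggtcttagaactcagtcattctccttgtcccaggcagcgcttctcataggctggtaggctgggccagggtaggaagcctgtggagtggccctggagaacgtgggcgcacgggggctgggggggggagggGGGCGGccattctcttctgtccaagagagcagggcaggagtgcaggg
Kif14: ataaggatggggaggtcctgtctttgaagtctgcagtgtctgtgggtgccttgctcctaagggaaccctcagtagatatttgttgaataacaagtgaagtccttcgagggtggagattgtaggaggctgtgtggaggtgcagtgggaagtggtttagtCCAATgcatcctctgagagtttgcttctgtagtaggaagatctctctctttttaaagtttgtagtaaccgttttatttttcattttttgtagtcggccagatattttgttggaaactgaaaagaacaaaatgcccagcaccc

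In the day 0 list of WT replicate 1, peaks covered 0 bases of the Ubr4 and Cd44 windows and 80 bases of the Kif14 window, which replicate 2 did not touch. Kif14 is thus 1 of the 15 host windows touched, and its G and C content of 43.7% is below the median of the hosts. Motifs were searched on both strands over the whole window, with overlapping matches allowed. GGGCGG, the letters of the GC box, was found in 72.4% of host windows and 47.3% of all coding windows. TATAAA was found in 6.27% and 13.5%, CCAAT in 38.0% and 39.1%, TGAGTCA in 2.4% and 4.59%, and CAGCTG in 13.2% and 15.2%. The median G and C content was 64.0% in host windows and 56.7% in all. These shares describe letters in a fixed window and were not tested.

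Myoblast identity was checked on marker genes before the conditions were compared. In the 2 day 0 WT libraries peaks covered 55.1% and 50.1% of Myod1, the myogenic master regulator, 83.9% and 89.1% of Des, and 93.2% and 94.7% of Itga7, a laminin-binding integrin of muscle. Cdh15 had 87.4% and 94.1% and Vcam1 62.2% and 39.1%. The other 3 of the 8 markers were low: Ncam1 had 21.7% and 19.2%, and Myf5, another myogenic factor, 12.2% and 11.6%. Pax7, a marker of quiescent satellite cells, had 3.23% and 4.54%, and Myog, which marks the start of differentiation, was listed at 0 in both. All 10 markers of other lineages were listed at 0. A 0 means that no peak was called there and does not show that a gene is silent. Eef2 and Rrm2, from the translation and cell cycle gene lists used below, were also at 0 in both libraries. Of the 8 myoblast markers only Itga7 hosts a domain, and of 10 late muscle genes only Ttn, the giant sarcomere protein.

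Across the WT libraries the domains stayed largely covered, and cover was lowest under methionine restriction. At day 1 the mean over the 975 domains was 90.9% and 93.8% in the control libraries and 83.0% and 77.5% in the restricted ones. At day 5 it was 91.0% and 89.4% in control medium and 81.3% and 82.2% under restriction. The groups did not overlap on either day. Shorter regions had group means of 83.0% and 62.4% at day 1 and 82.0% and 67.6% at day 5, so the short regions differed more than the domains. At least 80% cover was kept by 893 and 943 domains in the day 1 control libraries, and by 684 and 536 in the restricted ones. Of shorter regions 65.3% and 70.5% had such cover in the control libraries and 41.6% and 27.6% in the restricted ones, against 91.6%, 96.7%, 70.2% and 55.0% of domains.

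**Figure D1:**
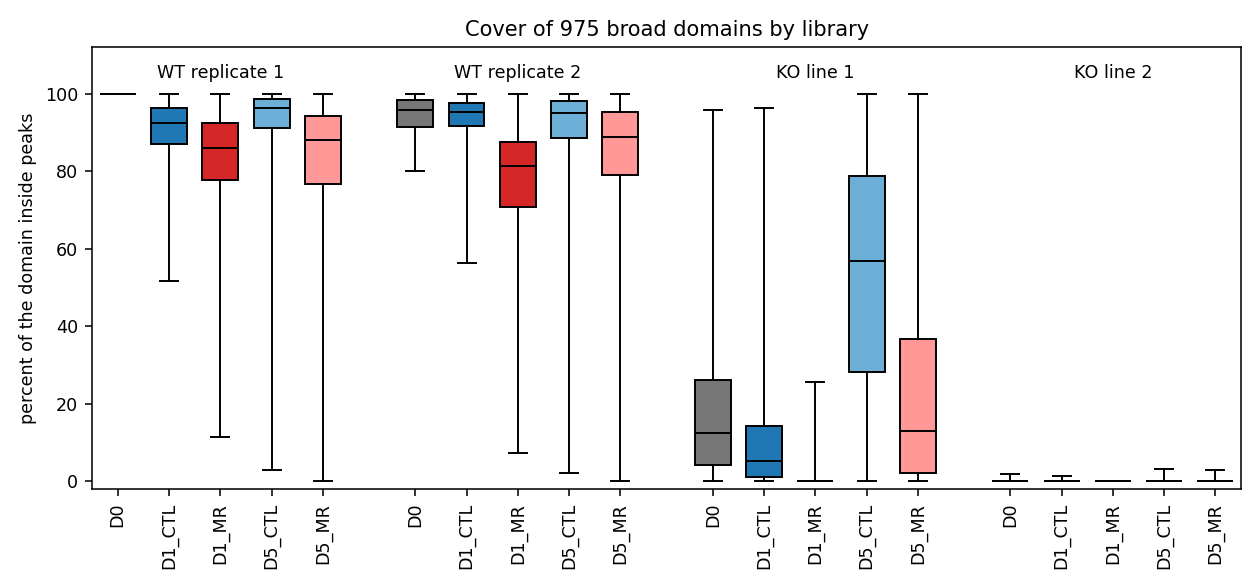
Percent of each of the 975 domains inside peaks (vertical axis) in each of the 20 libraries (horizontal axis, by condition; CTL is control medium, MR methionine restriction). Boxes span the quartiles, the line is the median and whiskers reach the lowest and highest domain. WT replicate 1 at day 0 defined the domains and is at 100 by construction. The medians of the restricted WT libraries lie below those of the control libraries of the same day, and most of the boxes overlap, and KO line 2 is near 0 throughout.

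Uncovered stretches were wider under restriction. The widest uncovered stretch of a domain had a median, averaged over the 2 libraries of a group, of 0.645 kb in day 1 control medium and 1.57 kb under restriction, and of 0.57 kb and 1.4 kb at day 5. To see where cover was lost, each of the 665 oriented domains was divided into 5 equal segments numbered from the host's 5′ side. In day 1 control medium segment 1 was covered to 87.2% and segment 5 to 90.5%, and under restriction to 68.3% and 73.9%. At day 5 the values were 87.1% and 86.3% in control medium and 69.4% and 77.01% under restriction. The middle segment stayed at 86.4% to 90.1% in the 4 restricted libraries, against 90.7% to 96.2% in the 4 control libraries. Both ends thus had lower cover than the middle under restriction. The edges were set by the day 0 list of replicate 1, and in replicate 2 of that day, which also entered the rule, segments 1, 3 and 5 had 91.8%, 95.9% and 92.9%.

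**Figure D2:**
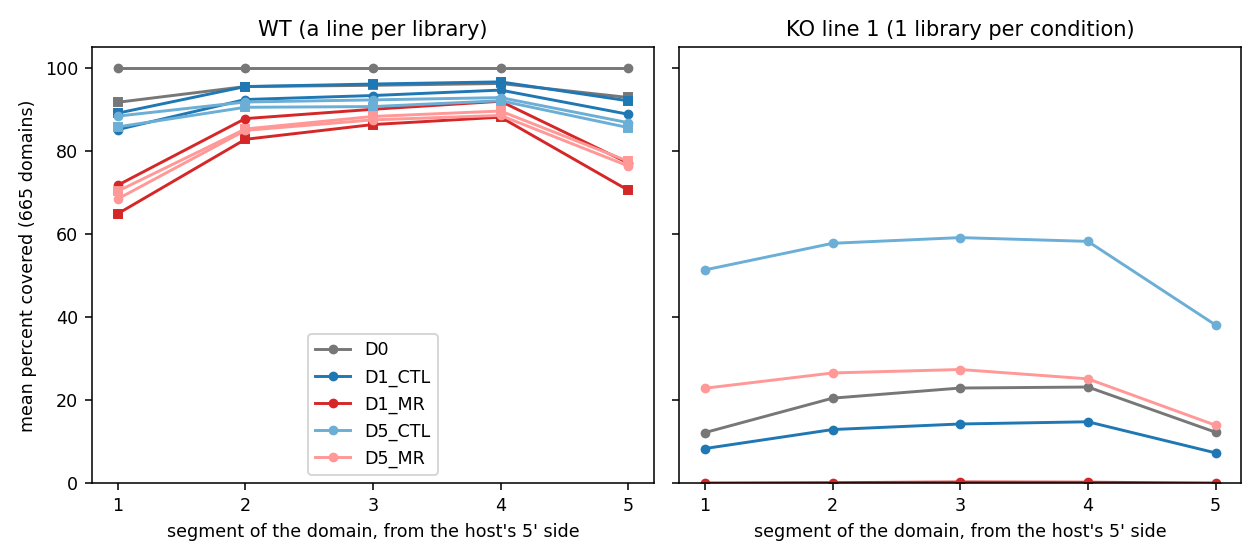
Mean percent covered (vertical axis) in each of 5 equal segments of the 665 oriented domains (horizontal axis, segment 1 at the host's 5′ side), for WT with a line per library (circles replicate 1, squares replicate 2) and for KO line 1 with 1 library per condition. Under restriction the WT ends fall to between 64.9 and 77.6 while the middle stays above 86. KO line 1 in the day 5 control library goes from 51.4 in segment 1 to 38.1 in segment 5.

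Whether single domains changed under restriction was tested with limma on the 8 WT libraries of days 1 and 5, over 11993 regions of at least 2 kb, with Benjamini-Hochberg (BH) adjusted p under 0.05 as the call. At day 1, 388 of 975 domains fell (39.8%), close to the 38.4% of all regions tested that fell, and 4 rose (0.41%), against 1.58% of all regions. At day 5, 205 domains fell (21.0%, against 24.4% of all regions) and 25 rose (2.56%, against 3.78%). The shares that fell were thus near the background in this fit, while fewer domains than regions rose at day 1. With 1 library left out the lower count at day 1 ranged from 156 (without WT day 1 control replicate 2; 205 without replicate 1) to 501. The lower count at day 5 was 45 to 85 without any one library of day 5 (4.62% to 8.72% of domains, below the 11.4% to 16.1% of all regions in the same fits), and 314 and 309 without WT day 1 restricted replicates 1 and 2. The higher count at day 5 ranged from 6 to 30. The median difference over the domains was −9.48 points at day 1 and −5.69 at day 5, and over all regions −14.4 and −7.46 points. When each library was centred on its own median the split turned, to 65 lower and 300 higher domains at day 1 and 82 lower and 247 higher at day 5, so the direction of the domains as a whole holds on the uncentred scale only. Centred, 30.8% of domains and 18.2% of all regions were higher at day 1, and 25.3% and 18.6% at day 5. With lists trimmed to equal covered length 303 fell (31.1%, against 23.6% of all regions) and 7 rose (0.718%, against 4.71%) at day 1, and 227 fell and 96 rose at day 5, where 18.6% of all regions fell and 12.3% rose. How the domains stood to all regions depended on the setting. With only the 4 libraries of the contrast 15.4% of domains and 23.2% of regions fell at day 1, and with −log10 q of 3 or more 38.7% and 29.9%. With the spread modelled on region length, a setting chosen after seeing the data, 48.5% of domains and 38.7% of regions fell at day 1 and 36.5% and 27.5% at day 5.

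The calls of both days were compared next. Of the 388 domains lower at day 1 and the 205 lower at day 5, 170 were shared, which is 43.8% of the former and 82.9% of the latter, and 0 were called in opposite directions. Over all regions tested 2422 were lower on both days, 52.7% of those lower at day 1 and 82.8% of those lower at day 5, so the domains and all regions had nearly the same share of day 5 calls in common. A difference of the restriction effect between the days was called by limma in 0 of 975 domains, and in 0.0% of all regions. The median of the day 5 difference minus the day 1 difference was 4.03 points over the domains and 5.94 points over all regions. Without WT day 1 restricted replicate 1 these medians were 6.41 and 9.26 points. At an unadjusted p under 0.05 in limma, 15 domains had a lower difference (restriction minus control) at day 5 than at day 1 and 58 a higher one.

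**Figure D3:**
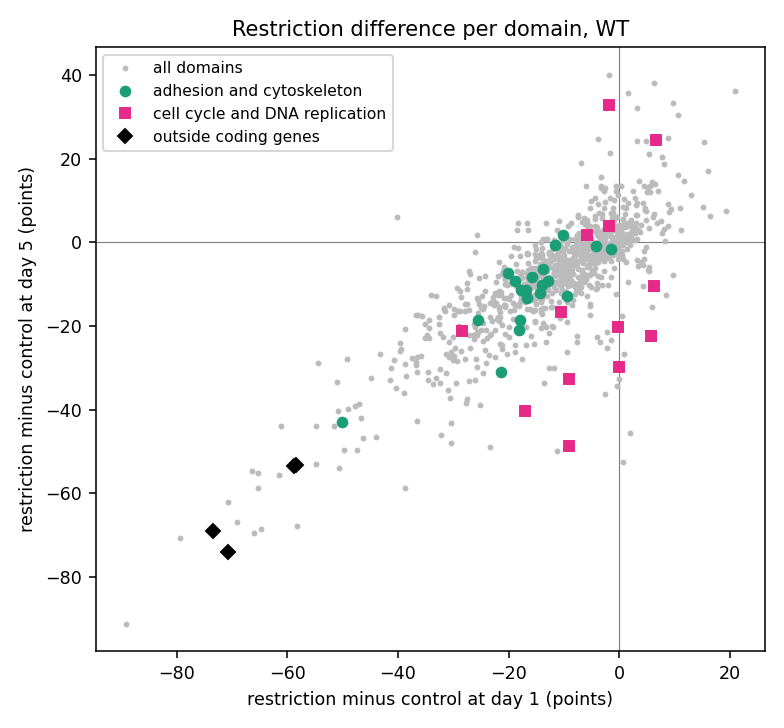
Difference in cover, restriction minus control in percentage points, at day 1 (horizontal axis) and day 5 (vertical axis) for each of the 975 domains in WT. Each point is a difference of 2-library means. The 4 domains outside coding genes (diamonds) lie between −53 and −74 on both axes, and cell cycle hosts spread along the day 5 axis. The adhesion and cytoskeleton hosts have medians of −16.2 and −10.7 points at days 1 and 5, against −9.48 and −5.69 for all domains.

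The domain with the widest loss was on Cd44, which encodes a cell surface receptor for hyaluronan. This 23.5 kb domain at chr2:102874662-102898167 lies near the 5′ end of the gene. It was covered to 98.6% and 100% in the day 1 control libraries and to 12.7% and 7.4% in the restricted ones. At day 5 it was covered to 97.3% and 92.3% in control medium and to 4.13% and 3.07% under restriction. That these libraries do not overlap follows from the rule that named the domain. The difference was −89.2 points at day 1 (SE 6.81, limma BH-adjusted p = 0.000523) and −91.2 points at day 5 (adjusted p = 0.000534), with adjusted p of at most 0.015 over the alternatives that tested the same domain. A second domain on Cd44, 37.8 kb at chr2:102830270-102868041 toward the 3′ end, kept more. Its cover was 95.5% and 99.9% in day 1 control medium and 71.2% and 64.6% under restriction, a difference of −29.8 points (limma adjusted p = 0.00468).

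Runx1, a transcription factor, and Niban2, a cytoplasmic protein of the Niban family, hosted the next widest losses in coding genes at day 1. On Niban2 (chr2:32896727-32917520) cover was 95.8% and 97.3% in control medium and 23.8% and 10.4% under restriction, a difference of −79.4 points (SE 7.58, limma adjusted p = 0.000674). On Runx1 (chr16:92621768-92653884) it was 98.4% and 98.6% against 28.3% and 27.0%, a difference of −70.8 points (SE 6.44, limma adjusted p = 0.000618). At day 5 both domains were again low, with 27.9% and 22.2% on Niban2 and 39.2% and 36.7% on Runx1 in the restricted libraries.

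Lasp1, a LIM protein that binds actin, showed where in a domain cover was lost. At day 5 its domain (chr11:97805989-97839703) had 93.3% and 90.2% in control medium and 19.9% and 24.8% under restriction, a difference of −69.4 points (SE 6.83, limma adjusted p = 0.000759). Segment 1 was at 0 in all 4 restricted libraries, while segment 5 kept 77.5% at day 1 and 82.7% at day 5. Only 4 of the 665 oriented domains (0.602%) had segment 1 at 0 in all 4 restricted libraries: Lasp1, Phc2, Sema7a and Pkm. Pkm encodes the pyruvate kinase of muscle and proliferating cells, and its domain had 98.7% and 99.3% in day 1 control medium against 64.2% and 55.8% under restriction (limma adjusted p = 0.00256).

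The domains outside coding genes fell by 53.2 to 74.0 points. The miR-29 domain, 34.5 kb long with its nearest coding gene 94.9 kb away, was covered to 98.5% and 98.5% in day 1 control medium and to 26.2% and 24.1% under restriction. At day 5 it had 97.4% and 96.1% in control medium and 23.3% and 32.3% under restriction. The difference was −73.4 points at day 1 (SE 6.96, limma adjusted p = 0.000661) and −68.9 points at day 5 (adjusted p = 0.000828). The lack of overlap between its libraries follows from the rule that named this domain.

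The miR-365 domain had 93.0% and 96.3% in day 1 control medium and 29.4% and 18.4% under restriction, and at day 5 95.8% and 93.8% against 19% and 22.5%. Its difference was −70.8 points at day 1 (limma adjusted p = 0.000797) and −74.0 points at day 5 (adjusted p = 0.000759). The let-7 domain, which also holds the noncoding gene Lncppara, kept more. It had 97.3% and 99.9% in day 1 control medium against 44.0% and 36.5% under restriction, and at day 5 98.3% and 96.5% against 43.5% and 44.9%. Its differences were −58.4 points (limma adjusted p = 0.001) and −53.2 points (adjusted p = 0.0016). The miR-31 domain was the most variable of the 4 in control medium. It had 77.2% and 93.5% against 32.9% and 19.9% at day 1, a difference of −58.9 points (limma adjusted p = 0.0029), and −53.6 points at day 5 (adjusted p = 0.00526). All 4 domains were also called lower on both days after centring, with lists of equal covered length, with peaks restricted to −log10 q of 3 or more, and with only the 4 libraries of a contrast.

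Along the microRNA's strand, segment 1 of the let-7, miR-29 and miR-365 domains was listed at 0 in all restricted libraries and segment 2 had at most 1.64% in either group. In control medium segment 1 of these 3 had 85.0% to 99.6%. Segments 3 to 5 kept part of their cover, and segment 4 of the let-7 domain had 92.1% at day 1 and 84.4% at day 5 under restriction. Downstream segments also lost cover. Segments 3 and 4 of the miR-29 domain had 33.0% and 31.9% at day 1 under restriction, and segment 5 of the miR-365 domain 24.2%, all from 100% in control medium. The miR-31 domain had 41.2% in segment 1 at day 1 under restriction.

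**Figure D4:**
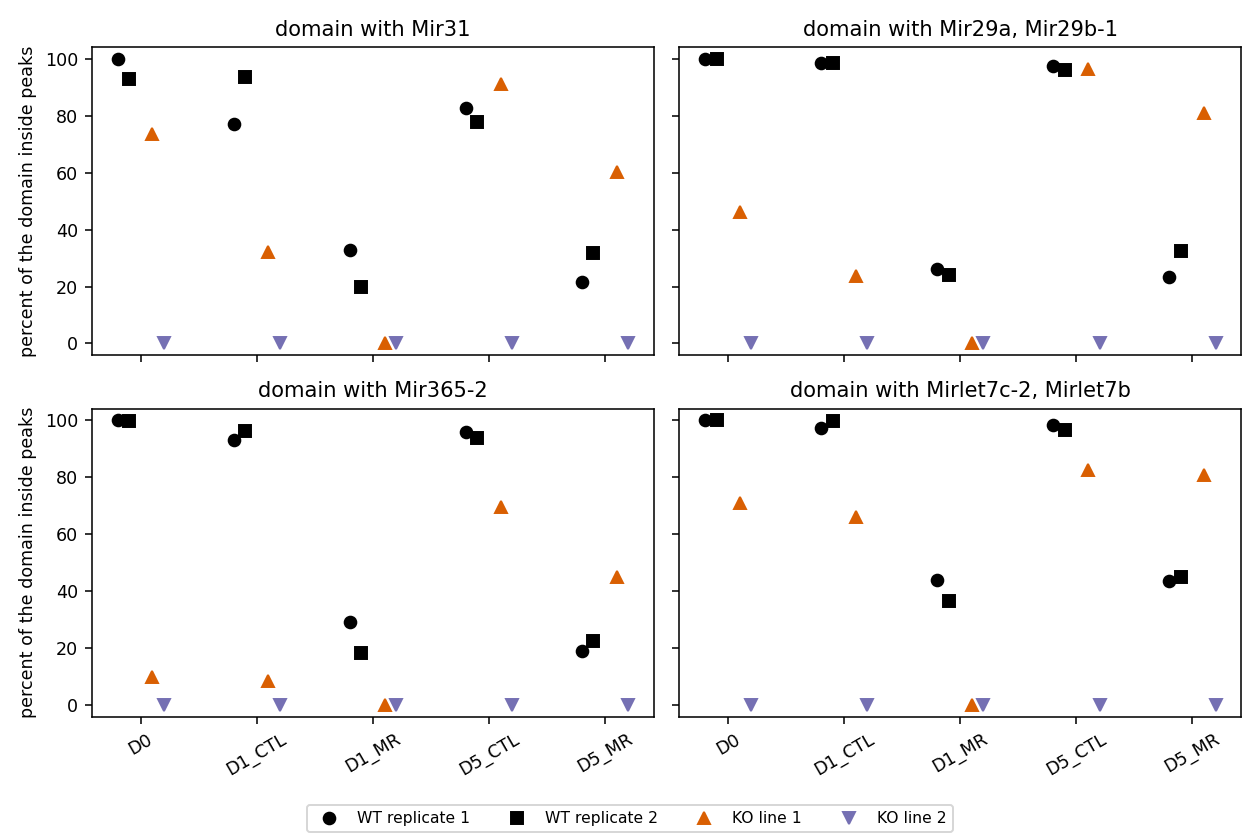
Percent of each of the 4 domains outside coding genes inside peaks (vertical axis) in each condition (horizontal axis). Circles and squares are WT replicates 1 and 2, upward triangles KO line 1 and downward triangles KO line 2, with 1 library each. WT restricted libraries lie between 18.4 and 44.9, WT control libraries between 77.2 and 99.9, and KO line 2 at 0.

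MicroRNA hairpins were more frequent in domains than in shorter regions: 55 domains (5.64%) held 63 of the 919 hairpins in the table, against 1.56% of the shorter regions, which are also shorter to search. Of the 51 inside coding hosts, 23 fell at day 1 (45.1%) and 13 at day 5 (25.5%), near the shares over all domains. The domain on Aopep, an aminopeptidase gene, holds Mir23b, Mir27b and Mir24-1 and had 98.2% and 100% in day 1 control medium against 59.6% and 57.9% under restriction, a difference of −40.4 points (limma adjusted p = 0.00152). The Wdr82 domain with let-7g had 96.4% and 92.9% against 71.0% and 56.9%, a difference of −30.7 points at day 1 (limma adjusted p = 0.0107), and −15.0 points at day 5 (adjusted p = 0.137). The domain of Srebf2, the sterol-regulated factor whose intron holds Mir33, had 99.0% and 98.4% against 93.4% and 95.3% and was not called.

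Domains that rose under restriction, meaning higher cover than in control medium of the same day, were few. At day 1 they were a pair on Mdn1, and single ones on Polr1b, a subunit of RNA polymerase I, and Ttc17. Mdn1 encodes a giant ATPase of ribosome assembly. Its domain at chr4:32665829-32699609 had 65.3% and 76.2% in control medium and 93.3% and 90.1% under restriction, a difference of 20.9 points (SE 6.16, limma adjusted p = 0.0326). Polr1b had 77.03% and 80.3% against 94.8% and 94.6%. All 4 calls were lost under some alternatives, where the adjusted p reached 0.12 to 0.155.

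The rises at day 5 were wider. Brd9, a bromodomain subunit of a SWI/SNF complex, went from 53.4% and 58.7% in control medium to 94.1% and 94.2% under restriction (difference 38.1 points, limma adjusted p = 0.00219). Eps8, an actin regulator, went from 12.4% and 17.4% to 54.2% and 55.8%, and the first Mdn1 domain from 68.2% and 59.2% to 100% and 99.8%. Ddx11, a DNA helicase, went from 45.6% and 42.3% to 76.6% and 82.8%. Utp20, a factor of ribosomal RNA processing, went from 66.9% and 60.9% to 96.3% and 98.2%. In day 1 control medium Eps8 had 77.7% and 85.9% and Ddx11 95.8% and 93.3%, above their restricted values at day 5. Brd9 had 84.7% and 87.0% there, Utp20 76.5% and 83.6% and the Mdn1 domain 65.3% and 76.2%, below theirs. These 5 had limma adjusted p of at most 0.00621, and each kept its call under the alternatives that tested the same domains. That the libraries of the groups do not overlap on these 5 follows from the rule that named them.

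Gene lists chosen with earlier results of these data known were used to describe hosts by role, and the counts are set beside the values over all domains, of which 39.8% fell at day 1 and 21.0% at day 5. With only the 4 libraries of a contrast the shares of all domains that fell were 15.4% and 25.8%, and after centring 6.67% and 8.41% fell and 30.8% and 25.3% rose. Of 20 domains on adhesion and cytoskeleton genes, 16 fell at day 1 (80%) and 8 at day 5 (40%), and 0 rose. With only the 4 libraries of a contrast 6 fell at day 1 and 11 at day 5. Their median difference was −16.2 points at day 1 and −10.7 at day 5, against −9.48 and −5.69 for all domains. After centring 1 fell and 2 rose at day 1, and 2 fell and 3 rose at day 5. Tpm1, a tropomyosin of the actin filament, had 92.7% and 93.2% in day 1 control medium and 46.7% and 39.0% under restriction (difference −50.1 points, limma adjusted p = 0.0016). Dst fell by 20.1 points at day 1 (limma adjusted p = 0.00324), from 95.01% and 96.6% to 76.0% and 75.4%, and had 91.6% and 92.3% under restriction at day 5 (adjusted p = 0.135). Itga7 fell by 23.9 points at day 1 (limma adjusted p = 0.00544), from 100% and 99.1% to 78.8% and 72.6%.

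Of 13 domains on extracellular matrix genes, 4 fell at day 1 (30.8%: Hspg2, Lama5, Col1a2 and Sparc), and at day 5 4 fell (30.8%: Tnc, Col6a3, Col1a2 and Sparc) and 1, on Nid1, rose. With only the 4 libraries of the contrast 2 fell at day 1 and 5 at day 5. With lists of equal covered length 5 fell at day 1 and 7 at day 5, where 31.1% and 23.3% of all domains fell. After centring 0 fell and 5 rose at day 1, and 1 fell and 3 rose at day 5. Col5a1, the longest of them, had 99.3% and 99.3% in day 1 control medium and 97.0% and 95.3% under restriction (limma adjusted p = 0.201). Nid1, a basement membrane linker, had 63.0% and 61.9% in day 5 control medium and 88.6% and 85.8% under restriction (difference 24.7 points, limma adjusted p = 0.00899).

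Among hosts of general machinery, 7 of 18 domains on chromatin and transcription genes fell at day 1 (38.9%, near the share of all domains) and 2 at day 5 (11.1%), on Smarca4 and Smarcc1. With only the 4 libraries of a contrast 3 fell at day 1 and 4 at day 5. After centring 0 fell and 8 rose at day 1 and 0 fell and 6 rose at day 5, beside the rise of all domains on that scale. Of 9 splicing domains 6 fell at day 1 (66.7%; 2 with only the 4 libraries) and 1, on Srrm2, at day 5 (11.1%; 2 with only the 4 libraries), and after centring 0 fell and 1 rose on each day. Translation and protein turnover had 2 of 10 lower at day 1 (20%; 0 with only the 4 libraries), on Vcp and Cand1, and 0 at day 5, and after centring 6 and 3 rose. Ubr4, the longest domain, had 99.0% and 98.3% in day 1 control medium and 96.7% and 93.3% under restriction (difference −3.59 points, limma adjusted p = 0.222). Among the surface receptors Lrp1, Notch1 and Fgfr1 fell at day 1 and Lrp1 and Fgfr1 at day 5, out of 4 domains. With only the 4 libraries of a contrast 0 fell at day 1 and 2 at day 5. After centring 0 of the 4 fell and 0 rose on either day.

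From day 1 to day 5 without restriction, 45 domains fell (4.62%, against 3.94% of all regions tested) and 0 rose (against 0.942%), with 19 above day 1 at an unadjusted p under 0.05 in limma. The 5 widest falls were on Kntc1, Bcat1, Ndc80, Iqgap3 and Kif14. Kntc1, a kinetochore protein, went from 76.9% and 85.3% to 2.86% and 5.64%, and Ndc80, another, from 88.8% and 88.6% to 9.77% and 19.04%. Iqgap3, a scaffold protein that binds small GTPases, went from 97.7% and 95.3% to 20.1% and 24.3%. Kif14 (chr1:136471145-136499743) went from 87.1% and 93.0% to 15.2% and 17.2%, a difference of −73.8 points (SE 6.74, limma adjusted p = 0.00514). Bcat1, which transaminates branched-chain amino acids, went from 83.1% and 91.3% to 9.75% and 12.5%. The lack of overlap between days follows from the rule that named these 5. In a fit of only the 4 control libraries 0 domains were called, and the adjusted p of these 5 was 0.0869. The call on Kntc1 was also lost with peaks of −log10 q of 3 or more (limma adjusted p = 0.154).

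Cell cycle and DNA replication genes made up 8 of these 45 domains, out of 13 on the list: Cenpe, Kif11, Mcm6, Mki67, Aspm, a pair on Cenpf and Mcm5. The median of the 13 was −45.8 points, against 0.824 points over all domains. After centring 10 of the 13 fell, against 5.74% of all domains, and with lists of equal covered length 11, against 11.4%. The kinetochore motor Cenpe had 89.5% and 96.2% at day 1 and 22.6% and 32.2% at day 5, and Mki67, which encodes the proliferation antigen Ki-67, 91.2% and 95.7% against 55.8% and 39.5%. Under restriction at day 1, 1 of the 13 fell, on Smc4, and after centring 0 fell and 3 rose.

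Under restriction at day 5, 4 of the 13 fell (30.8%, against 21.0% of all domains) and 2 rose (15.4%, against 2.56%). The domains on Top2a, Mki67 and Cenpf (a pair) fell. Those on Mcm5 and Mcm6, subunits of the replicative helicase, rose against day 5 control medium, where both had fallen from day 1. After centring 2 fell and 3 rose. Top2a, the mitotic topoisomerase, had 70.0% and 60.6% in control medium and 12.8% and 20.5% under restriction (difference −48.6 points, limma adjusted p = 0.00315). Mcm6 had 51.2% and 44.7% in control medium and 79.8% and 81.6% under restriction (difference 32.8 points, adjusted p = 0.00856). With lists of equal covered length 0 of the 13 fell and 4 rose, and with a −log10 q of at least 3 0 fell and 1 rose, so the lower calls did not hold there.

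In the KO lines nearly all domains had less cover than in WT, and the lines differed. KO line 2 had any cover in only 42 of the 975 domains, at most 3.08% of a domain. It lay below both WT libraries of its condition in all 975 domains in the day 1 control, day 1 restricted and day 5 control libraries (99.5%, 91.2% and 97.4% of all regions) and in 969 in the day 5 restricted library (91.0%). KO line 1 averaged 18.4% at day 0, and 11.8% and 53.0% in its control libraries of days 1 and 5. Its restricted libraries averaged 0.202% in the list of 791 peaks at day 1 and 23.0% at day 5. It lay below both WT libraries in 973 domains in the day 1 control library (99.2% of all regions did), in 975 in the day 1 restricted library (91.2%), in 935 in the day 5 control library (91.2%) and in 898 in the day 5 restricted library (83.1%). A region where a WT library is at 0 can never count as below both. In the day 1 restricted WT libraries 612 and 926 shorter regions were at 0, and 0 domains. The shares of all regions under restriction are therefore not comparable with those of the domains. With 1 library per line and condition these are descriptions without a test. Because each list was called by itself at unknown depth, the number of peaks and the reach of the mark cannot be told apart.

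In KO line 1 the domains filled more than shorter regions. In the day 5 control library mean cover went from 23.9% of regions of 2 to 5 kb to 69.4% of domains of at least 60 kb. At least 80% cover was reached by 11 domains at day 0 (1.13%, against 0.5% of all regions), by 9 in the day 1 control library (0.923% against 0.417%) and by 224 in the day 5 control library (23.0% against 11.6%). Under restriction it was reached by 0 at day 1 (0.0% of all regions) and by 49 at day 5 (5.03% against 3.78%). All 49 were among the 224. Cover in the day 5 control library was above that at day 0 in 892 domains and below it in 67. The mean over shorter regions also went up, from 7.06% to 30.4%.

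The 11 domains with at least 80% cover in KO line 1 at day 0 included hosts of matrix and cytoskeleton proteins. Among them were Col1a2 (95.8%), Myh9 (91.3%), Dnaja2 (90.7%), Fn1 (87.2%), Plec (86.9%), Col3a1 (86.3%), Sparc (83.3%), Fdft1 (80.7%), Kmt2d (80.4%) and Wdr1 (80.3%). Col1a2, a chain of type I collagen, had 96.3% in the day 1 control library, 94.1% in the day 5 control library and 94.2% at day 5 under restriction, and 16.4% in the nearly empty list. Over the matrix list the median cover in KO line 1 was 61.9% at day 0 and 87.6% in the day 5 control library, against 12.5% and 56.8% over all domains. The adhesion list had a median of 86.3% in the day 5 control library, with 14 of 20 domains at 80% or more, and the matrix list had 10 of 13, against 23.0% of all domains. Other lists were as high there, with a median of 87.7% for splicing and 86.1% for the surface receptors. No ranking of the lists at day 0 is given, since 1 gene list is not reported here.

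The median cover of cell cycle hosts in KO line 1 was 19.1% at day 0 and 19.8% and 1.84% in the control libraries of days 1 and 5, against 12.5%, 5.29% and 56.8% over all domains. The longest domains at 0 in the day 5 control library were on Cenpe, Bub1b, a spindle checkpoint kinase, E2f7, Ect2 and Mcm3ap. In the day 5 control libraries of WT the first 4 of these had 18.7% to 42.6%, so they were low there too. Mcm3ap, a nuclear mRNA export scaffold, was different: it was covered to 93.5% to 99.4% in the 8 WT libraries of days 1 and 5 and was at 0 in all 5 libraries of KO line 1. Brd9 was also at 0 in all 5.

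A set of 50 of the 975 domains went from under 20% at day 0 to at least 80% in the day 5 control library in KO line 1. The same count was not made over shorter regions, whose mean cover also went up, from 7.06% to 30.4%. Ttn had 0 at day 0, 100% in the day 5 control library and 94.3% at day 5 under restriction, while in WT it had 96.8% to 100% in the 8 libraries of days 1 and 5. Rnf213, a large ubiquitin ligase, held a pair of domains that went from 5.86% and 14.6% to 100% each. Tjp1, a tight junction scaffold, went from 9.46% to 92.5%. These values compare single libraries of different covered length, 17.7 Mb at day 0 and 74.1 Mb at day 5.

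**Figure D5:**
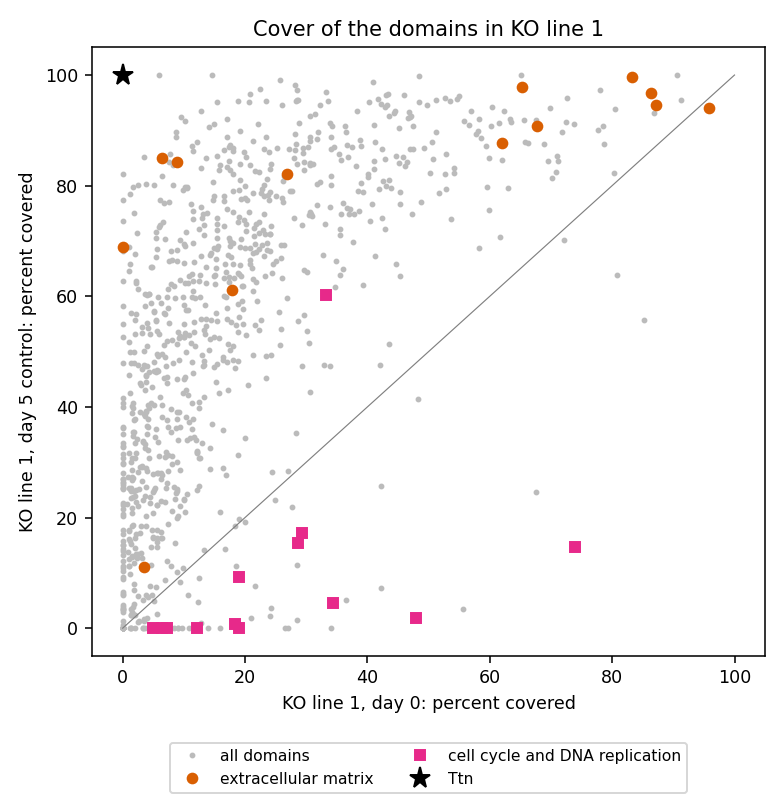
Percent of each domain inside peaks in KO line 1 at day 0 (horizontal axis) and in the day 5 control library (vertical axis), 1 library each; the line marks equal values. Extracellular matrix hosts lie above the line except Col1a2, cell cycle hosts lie near the bottom except 1, and Ttn (star) goes from 0 to 100.

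The domains outside coding genes were also partly covered in KO line 1. The let-7 domain had 70.8% at day 0, 66.2% and 82.5% in the control libraries of days 1 and 5, and 80.8% at day 5 under restriction. The miR-29 domain had 46.0%, 23.6%, 96.3% and 80.9% in the same order, the miR-31 domain 73.7%, 32.3%, 91.2% and 60.2%, and the miR-365 domain 10.1%, 8.65%, 69.5% and 45.1%. At day 5 under restriction each of the 4 was covered further in KO line 1 than in either WT library, with 43.5% and 44.9% for let-7 in WT. All 4 were at 0 in the 5 libraries of KO line 2. By contrast the 5′ domain of Cd44 had 26.8% in the day 5 control library and 3.88% under restriction in KO line 1.

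Along the 665 oriented domains, KO line 1 in the day 5 control library had 51.4% in segment 1 and 38.1% in segment 5, with segment 1 above segment 5 in 426 domains and below it in 177. At day 5 under restriction the values were 22.9% and 13.98%, and at day 0 12.2% and 12.3%. Host promoter windows were touched by KO line 2 peaks in 87 of 750 hosts (11.6%) in the day 5 control library, against 4.36% of all 16457 coding windows and 9.32% of the other marked genes, and in 0 to 1 hosts in the other 4 libraries of that line. The domains themselves were at most 3.08% covered in that line.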

How the data were processed

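H3K36me3 was measured by chromatin immunoprecipitation and single-end sequencing in C2C12 cells, with Drosophila chromatin added as a spike-in, per the labels' protocols. Spike-in scaling and the input were not used here. The deposited files were 20 lists of broad peaks, 1 per library, on GRCm38, per the submitters' processing notes. The peak caller, its control and the read filters are not given in the sources used here. The fold enrichment (a ratio), the −log10 p-value and the −log10 q-value per peak are the authors' values as deposited, and the deposited score column was not used. The peak names inside the KO lists speak of replicates 1 and 2, whereas the labels name KO lines 1 and 2. The labels were followed.

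Peaks that overlapped or touched were merged. Genes, promoter windows and microRNAs came from RefSeq tables on GRCm38.p6, with 20665 protein-coding genes on chromosomes 1 to 19. Python 3.11.15 (numpy 2.4.6, pandas 2.3.3, matplotlib 3.10.9) computed the percent of each region covered. limma 3.58.1 in R 4.3.3 (eBayes with trend and robust options) tested 11993 of 12003 regions of at least 2 kb that met the same share in replicate 2, keeping a mean cover of at least 5%. The 4 WT groups of days 1 and 5 shared an estimate of the spread, and BH adjustment was within a contrast over all regions tested. The day 0 libraries entered no test, since they chose the domains. The labels do not say that replicates are separate cultures, so p-values measure only the spread between these libraries.

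The overlap computation gave 0 differences from base-by-base counts in 200 simulated sets. With 3000 of the regions changed by 30 points in simulated data, limma recovered 81.3%, 89.0% and 87.7% of the changed domains and 48.6%, 49.5% and 49.3% of all changed regions in the day 1, day 5 and day 1 to day 5 contrasts. It recovered 0% with changes of 10 or 20 points, and 0% with 200 regions changed. In the data themselves differences under 20 points were called, as on Polr1b at day 1 (16.0 points). The simulated 0% is thus not a limit for the real fit.

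Named domains were the 10 longest, up to 5 per contrast and direction with the largest called difference and no overlap of libraries, the 5 with the highest mean cover and the 5 longest at 0 at day 5 control in KO line 1, up to 4 per gene list, the 5 least inside coding genes and those next to the thresholds. Others were named after their values were seen. Some named domains and 1 gene list are not reported here. The members and the gene lists were chosen with earlier results of these data known. Alternatives covered peak strictness, equal list length, centring, filtering, scale, the libraries in the fit, the rule itself and each left-out library.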

Additional observations from a re-analysis of the deposited data

How the results depend on the processing

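The number of domains, 975, was 559 with a share of 95% in replicate 2, 2250 with merging within 1 kb, 1717 from 15 kb, 343 from 30 kb and 514 with the replicates' roles exchanged. Domains lower at day 1 (388) were 65 after centring, 150 with only the 4 libraries of the contrast, 208 of the 514 domains with exchanged roles (40.5%, against 39.8% of 975) and 156 to 501 with 1 library left out, at 205 without WT day 1 control replicate 1 and 156 without replicate 2. Domains higher at day 1 (4) were 10 with a −log10 q of at least 3, 7 with lists of equal length, 300 after centring, 0 with only the 4 libraries, 1 with the replicate block, 1 of 514 with exchanged roles, 10 with the spread modelled on region length, a setting chosen after seeing the data, and 0 to 4 with 1 library left out. Domains lower at day 5 (205) were 82 after centring, 356 with the length model, 111 of 514 with exchanged roles (21.6%, against 21.0%) and 45 to 314 with 1 library left out: 45 to 85 without any library of day 5, and 314 and 309 without WT day 1 restricted replicates 1 and 2. Domains higher at day 5 (25) were 96 with lists of equal length, 247 after centring, 44 with the length model, 12 of 514 with exchanged roles and 6 to 30 with 1 library left out. Domains lower from day 1 to day 5 (45) were 111 with lists of equal length, 0 with only the 4 libraries, 76 with the length model, 23 of 514 with exchanged roles (4.47%, against 4.62%) and 19 to 43 with 1 library left out. Domains higher from day 1 to day 5 (0) were 2 with the stricter q, 5 with equal length, 2 on the arcsine scale, 4 with the length model and 0 to 1 with 1 library left out. For the difference between days, 0 lower and 0 higher became 5 and 5 with the length model, 8 higher with the stricter q, 23 higher with equal length, and 0 to 1 lower and 0 to 16 higher with 1 library left out, 16 without WT day 1 restricted replicate 1.

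The mean difference in domain cover was −12.1 points at day 1 (−18.6 with the stricter q, −14.8 to −9.4 with 1 library left out) and −8.46 at day 5 (−3.42 with equal length, −10.4 with exchanged roles, −9.23 to −7.69). From day 1 to day 5 it was −2.15 (−7.76 with equal length, −3.63 to −0.663). With the stricter q KO line 1 kept 80% cover in 5 rather than 9 domains at day 1 in control medium, 149 rather than 224 at day 5 in control medium and 32 rather than 49 at day 5 under restriction. Libraries with the same replicate number did not deviate together in cover (correlations of −0.0139 to 0.0208), and the main fit did not pair them. Whether they shared a culture or batch cannot be told from this, and the labels do not say. With the replicate block limma called 319 lower and 1 higher at day 1, 156 and 18 at day 5, and 40 and 0 from day 1 to day 5. Of 384 pairs of a named domain and a setting, 346 kept the call, 38 lost it and 0 reversed. The named domains were picked for the largest called differences, so these pairs do not describe the other calls. Of the 392 domains called at day 1 in the main fit, 72 were also called after centring, 69 of them with the same sign. At day 5, 107 of 230 were, all with the same sign. A library left alone in its group was assumed to vary like the others. The cause of these shifts was not tested. Unknown depth limits every value, since a longer or shorter list moves cover.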
